A study of Homo sapiens with 6 samples.

Results

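The genes described here are 9 genes of the actin cortex and of its attachment to the membrane: the filamins *FLNA* and *FLNC*, the cytoplasmic actins *ACTB* and *ACTG1*, the alpha-actinins *ACTN1* and *ACTN4*, the non-muscle myosin heavy chains *MYH9* and *MYH10*, and the talin *TLN1*. They were chosen by name, with earlier results of these data known, and matched to the gene symbols of the merged read count table. All 9 of 9 listed symbols matched, out of 55767 genes with a symbol, and all 9 were among the 23304 genes with enough reads to be tested. The study asked how loss of *RREB1*, a zinc finger transcription factor that binds RAS-response elements, changes transcription. RNA-seq was performed on HEK293T cells, a human embryonic kidney line transformed with adenovirus DNA that also carries the SV40 large T antigen. There were 3 libraries labelled sh-control, from cells expressing a nonspecific short hairpin RNA, and 3 labelled sh-RREB1, from cells expressing a hairpin against *RREB1*. Per the methods of the study, both hairpins were carried by pLKO.1 lentiviral vectors, the lines were stable and selected with antibiotic, and all cells grew in DMEM with fetal bovine serum, so that viral integration and selection were shared by both groups. The labels do not say whether the 3 libraries of a group came from separate cultures, so the *p*-values below measure the spread between these libraries, which may be technical.

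Actin monomers polymerise into filaments that give the cell cortex its stiffness and shape. Filamins and alpha-actinins crosslink these filaments, non-muscle myosin II pulls on them, and talin ties them to integrins in the plasma membrane. Several actin genes are classical targets of the serum response factor SRF, which works with the actin-sensing cofactors MRTF-A and MRTF-B and binds a DNA element known as the CArG box. In epithelial lines such as HEK293T the cytoplasmic actins are the filament-forming actins of the cell, whereas the muscle actins are low or silent. *ACTB* is also widely used as a reference gene, and the QPCR of *RREB1* in the human cells of the study was scaled to it.

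The actins encode nearly the same protein, and their coding sequences are the most alike among the members. They are shown first because reads of *ACTB* and *ACTG1* can be told apart only where the genes differ. The first 60 coding bases of the principal transcript of each gene (Gencode, hg38) are given here, with capitals at the 10 bases that differ.
ACTB: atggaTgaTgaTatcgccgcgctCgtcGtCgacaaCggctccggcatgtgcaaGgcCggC
ACTG1: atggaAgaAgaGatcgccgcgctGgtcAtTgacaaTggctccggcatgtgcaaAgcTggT

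Over the whole coding sequence the actins were identical at 1027 of 1125 bases (91.3%). Of the 1076 stretches of 50 bases in the coding sequence of *ACTB*, 10 (0.929%) also occurred in that of *ACTG1*. Identity was 82.5% between *ACTN1* and *ACTN4*, 74.5% between *FLNA* and *FLNC*, and 73.5% between *MYH9* and *MYH10*. Processed copies of the actin genes took few reads. The 11 *ACTB* pseudogenes in the tables held from 0.0118% to 0.0783% as many reads as *ACTB* in the same library, and the 21 *ACTG1* pseudogenes from 0.662% to 0.996% as many as *ACTG1*.

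The promoters of the members, except that of *ACTB*, for which no promoter sequence was available, were searched for the CArG box. This box is CC, then 6 bases that are each A or T, then GG. The search covered both strands, from 250 bases before to 50 bases after the RefSeq start site (GRCh38.p14). A match was found in *FLNA* and in *ACTG1*, in both cases beginning 94 bases upstream of the start. They are shown with 10 bases on each side, read on the strand of the gene, with the box in capitals. The first lies at chrX:154374709-154374738 on the minus strand and the second at chr17:81512874-81512903 on the minus strand.
FLNA: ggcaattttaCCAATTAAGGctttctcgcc
ACTG1: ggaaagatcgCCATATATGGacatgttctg

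The letters were not found in that window of *FLNC*, *ACTN1*, *ACTN4*, *MYH9*, *MYH10* or *TLN1*. *ACTB* was not searched, so 2 of the 8 members with a promoter sequence (25%) held a match. The share was 1.07% of the promoters of the genes tested (141 of 13191) and 1.29% of all 27305 promoters of the table.

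Between 12257054 and 33044061 reads per library fell on genes. Sh-RREB1 replicate 3 stood apart, with the lowest number and with 52.1% of its aligned reads at more than 1 place in the genome, against 3.66% to 7.63% in the other 5 libraries. Sh-control replicate 1 stood apart in another way. Among the tenth of genes richest in G and C (59.8% to 73.8% GC), its median level was lower by 1.09 on the log2 scale than the mean of the other controls, and among the tenth poorest in GC (26.7% to 38.3%) it was higher by 0.25. The targeted gene itself was measured at 27.1, 25.2 and 26.6 CPM (counts per 1000000 reads, scaled between libraries) in sh-control and at 23.7, 24.6 and 23.2 CPM in sh-RREB1. The groups did not overlap, but the log2 fold change of *RREB1* was -0.14 (95% confidence interval -0.43 to 0.15, *n* = 3 per group), with an adjusted *p* of 0.486 by the quasi-likelihood test of edgeR with Benjamini-Hochberg adjustment. These counts therefore do not by themselves check the labels, on which every direction given below rests. The QPCR and western blots of *RREB1* in the study were not analysed here. Markers of other cells were low. Of 12 muscle markers 6 had enough reads to be tested, and their summed level was 1.04 to 2.28 CPM in sh-control and 1.98 to 3.17 CPM in sh-RREB1. The 6 fibroblast markers summed to 5.96 to 7.29 CPM in sh-control and 6.82 to 19.0 CPM in sh-RREB1, and *COL1A2*, defining for fibroblasts and named after its values were seen, was at 0 in the 3 sh-control libraries and at 3.94 CPM in sh-RREB1 replicate 2. Of 5 blood markers 1 was tested, at no more than 0.317 CPM. All 7 genes listed as expressed by HEK293 cells were tested, with summed levels of 448 to 513 CPM in sh-control and 735 to 853 CPM in sh-RREB1. *VIM*, the most abundant of these 7 genes, encodes an intermediate filament protein. It was at 330 to 360 CPM in sh-control and 530 to 616 CPM in sh-RREB1, whereas the kidney factor *PAX2*, also named after its values were seen, was below 0.5 CPM in every library.

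In the libraries labelled sh-RREB1, 3 of the 9 genes rose and none fell at the thresholds of the study, an adjusted *p* under 0.01 together with a log2 change of more than 1 either way. In a bulk library a change in RNA per cell and a change in the share of cells that express a gene cannot be told apart. The 3 were *FLNA*, *ACTB* and *MYH9*. By the same rule 2.71% of all genes tested were called higher, 0.699% were called lower, and 3.41% were called in all. With no minimum fold change the same 3 members passed at an adjusted *p* under 0.01, where 3.12% of all genes passed upwards and 2.39% downwards, and 6 members passed upwards under 0.05, where 10.8% of all genes did. The median log2 fold change of the members was 1.08, and that of all genes tested was 0.01. The members were chosen with earlier results of these data known, so comparisons of them with all genes are descriptions. In 6 members, namely *FLNA*, *FLNC*, *ACTB*, *ACTN4*, *MYH9* and *TLN1*, every sh-RREB1 library was above every sh-control library, and 21.1% of all genes tested were separated in this direction. In *ACTG1*, *ACTN1* and *MYH10* the groups overlapped. Summed over the 9 genes, the level was 1772, 2025 and 2183 CPM in sh-control, and in sh-RREB1 it was 2853, 3311 and 2732 CPM, and these groups did not overlap either. DESeq2 called 5 members, the 3 above with *FLNC* and *ACTN4*, where it called 7.07% of all genes in both directions. With both strands counted together edgeR called 1 member, for which no share of all genes is given. Without 1 library it called from 0 to 2. Without sh-control replicate 1 it called 2, where 902 of all genes were called higher and 215 lower. No share is given for the fits without another library. With a trend on GC content and length removed edgeR called 0 members, where it called 3.02% of all genes in both directions.

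**Figure D1:**
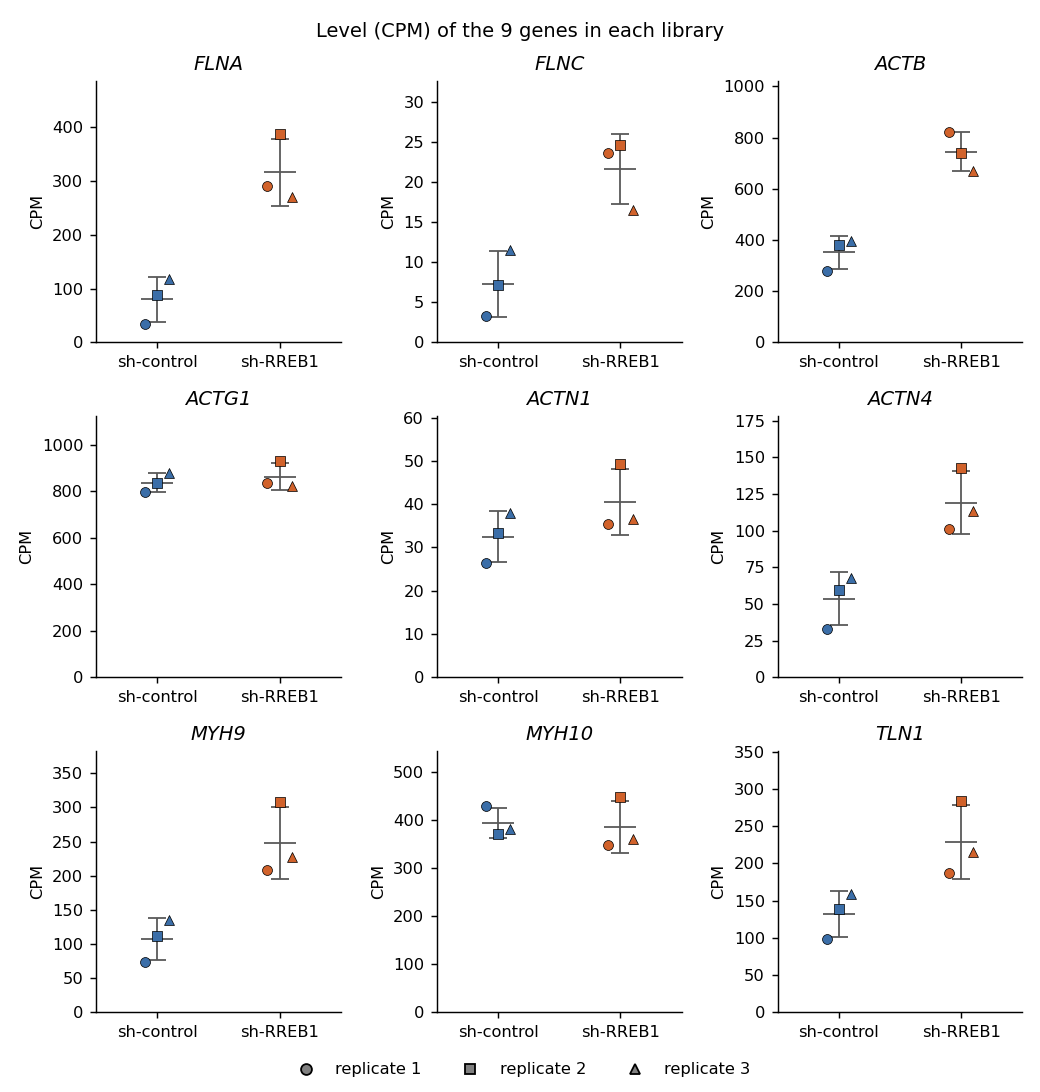
Level of each of the 9 genes in the 6 libraries, in CPM (linear axis from 0). Symbols are libraries (circle, square and triangle for replicates 1, 2 and 3), the long bar is the group mean and the error bars are the SD (*n* = 3). The groups are apart in *FLNA*, *FLNC*, *ACTB*, *ACTN4*, *MYH9* and *TLN1* and overlap in *ACTG1*, *ACTN1* and *MYH10*, and sh-control replicate 1 is the lowest library in every gene but *MYH10*.

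*ACTB* encodes beta-actin, which is concentrated in the contractile cortex and at the leading edge of cells. The gene (ENSG00000075624, chr7:5526409-5563902, minus strand) was measured at 278, 382 and 395 CPM in sh-control and at 824, 739 and 671 CPM in sh-RREB1. The lowest sh-RREB1 library was thus well above the highest control. The mean was 352 ± 64.2 CPM in sh-control and 745 ± 76.5 CPM in sh-RREB1 (SD, *n* = 3), a log2 fold change of 1.08 ± 0.15 (SE), or 2.12-fold. The edgeR quasi-likelihood test gave an adjusted *p* of 0.00408. *ACTB* was called in 1 of 6 fits that left out a library, the one without sh-control replicate 3. Leaving out sh-control replicate 1 gave a log2 fold change of 0.91 with an edgeR adjusted *p* of 0.00124, and leaving out sh-RREB1 replicate 3 gave 1.15 with an edgeR adjusted *p* of 0.0239.

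*ACTG1* encodes gamma-actin, the other cytoplasmic actin. The gene (ENSG00000184009, chr17:81509413-81523847, minus strand) was measured at 796, 833 and 879 CPM in sh-control and at 836, 929 and 820 CPM in sh-RREB1. The groups overlapped throughout. The mean was 836 ± 41.7 CPM in sh-control and 862 ± 58.8 CPM in sh-RREB1 (SD, *n* = 3), and the log2 fold change was 0.04 ± 0.10 (SE, 95% confidence interval -0.18 to 0.27). The adjusted *p* by edgeR was 0.801. The actins together made up 1187 ± 103 CPM in sh-control and 1606 ± 99.9 CPM in sh-RREB1, so *ACTB* carried the larger part of the difference in cytoplasmic actin reads.

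*FLNA* encodes filamin A, a long, flexible homodimer that crosslinks actin filaments at wide angles and binds integrin tails, and it is one of the genes the study drew in its display of MAPK pathway genes, which was chosen on these libraries. It had the largest fold change of the 9 genes. The gene (ENSG00000196924, chrX:154348524-154374634, minus strand) was measured at 34.5, 88.1 and 117 CPM in sh-control and at 290, 387 and 270 CPM in sh-RREB1. The groups were far apart, and sh-control replicate 1 was below the other controls by 1.56 on the log2 scale. The mean was 79.8 ± 41.9 CPM in sh-control and 316 ± 62.4 CPM in sh-RREB1 (SD, *n* = 3), a log2 fold change of 1.98 ± 0.37 (SE) or 3.95-fold. The adjusted *p* by edgeR was 0.00972, just inside the threshold. The gene was called in the fits without sh-control replicate 1 (log2 fold change 1.59) and without sh-control replicate 3 (2.33). The call was lost without sh-control replicate 2 or without any of the 3 sh-RREB1 libraries, with log2 fold changes between 1.81 and 2.08 and edgeR adjusted *p* between 0.0276 and 0.0497.

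*FLNC* encodes filamin C, the filamin of striated muscle, where it sits at the Z-disc. It was the scarcest of the 9 genes. The gene (ENSG00000128591, chr7:128830406-128859274, plus strand) was measured at 3.31, 7.14 and 11.5 CPM in sh-control (76, 194 and 370 reads) and at 23.7, 24.7 and 16.6 CPM in sh-RREB1 (587, 646 and 209 reads). No libraries of the groups overlapped. The log2 fold change was 1.56 ± 0.38 (SE, *n* = 3 per group), or 2.94-fold, with an edgeR adjusted *p* of 0.0241, so *FLNC* was not called. It was called without sh-control replicate 1, with a log2 fold change of 1.18 and an edgeR adjusted *p* of 0.00654. The muscle markers listed were near 0 in the same libraries, as given above. Muscle actin genes were outside that list and are named after their values were seen. *ACTA2* was at 12.5 to 16.7 CPM in sh-control and at 11.9 to 16.4 CPM in sh-RREB1. *ACTA1* had means of 0.111 and 0.355 CPM in these groups.

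*ACTN1* and *ACTN4* encode the non-muscle alpha-actinins, antiparallel dimers that bundle actin filaments in stress fibres and at adhesions. Their values differed between the paralogs. *ACTN4* (ENSG00000130402, chr19:38647649-38731589, plus strand) was measured at 33.2, 59.8 and 67.9 CPM in sh-control and at 101, 143 and 113 CPM in sh-RREB1, without overlap. *ACTN1* (ENSG00000072110, chr14:68874128-68979440, minus strand) was measured at 26.3, 33.3 and 38.0 CPM in sh-control and at 35.4, 49.2 and 36.6 CPM in sh-RREB1, with overlap. For *ACTN4* the log2 fold change was 1.15 ± 0.25 (SE, *n* = 3 per group) with an edgeR adjusted *p* of 0.0158, which missed the threshold. For *ACTN1* it was 0.31 ± 0.19 with a 95% confidence interval of -0.11 to 0.74 and an edgeR adjusted *p* of 0.275. With sh-control replicate 1 left out the values were 0.86 for *ACTN4* and 0.15 for *ACTN1*.

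*MYH9* and *MYH10* encode the heavy chains of non-muscle myosin IIA and IIB, the motors that contract actin filaments in cells outside muscle. *MYH9* rose and *MYH10* was not called. *MYH9* (ENSG00000100345, chr22:36281280-36388010, minus strand) was measured at 73.9, 112 and 135 CPM in sh-control and at 208, 307 and 227 CPM in sh-RREB1, without overlap. The mean of *MYH9* was 107 ± 30.8 CPM in sh-control and 247 ± 52.8 CPM in sh-RREB1 (SD, *n* = 3), a log2 fold change of 1.21 ± 0.23 (SE), or 2.31-fold, with an edgeR adjusted *p* of 0.00953. This value was just inside the threshold too, and no fit that left out a library called the gene. Leaving out sh-control replicate 1 gave *MYH9* a log2 fold change of 0.97 with an edgeR adjusted *p* of 0.00378, below the fold threshold, and the other 5 of these fits gave values between 1.02 and 1.38 with an edgeR adjusted *p* between 0.0107 and 0.0491. *MYH10* (ENSG00000133026, chr17:8474207-8631376, minus strand) was measured at 429, 370 and 382 CPM in sh-control and at 349, 448 and 362 CPM in sh-RREB1. The groups overlapped, with the highest and the lowest library both in sh-RREB1. The log2 fold change of *MYH10* was -0.03 ± 0.13 (SE, 95% confidence interval -0.31 to 0.26) with an edgeR adjusted *p* of 0.904.

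*TLN1* encodes talin 1, the adaptor that activates integrins and links their tails to actin. The gene (ENSG00000137076, chr9:35696948-35732195, minus strand) was measured at 98.2, 139 and 158 CPM in sh-control and at 186, 284 and 216 CPM in sh-RREB1. The sh-RREB1 libraries were all above the controls. The log2 fold change was 0.79 ± 0.20 (SE, 95% confidence interval 0.33 to 1.25, *n* = 3 per group) with an edgeR adjusted *p* of 0.0281, so it was not called, and it was 0.58 without sh-control replicate 1.

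Differences between the groups moved with the GC content of genes across the whole table, and 8 of the 9 members, all but *MYH10*, are richer in GC than the median gene tested (47.1%). The median log2 fold change was -0.23 in the tenth of genes poorest in GC and 1.13 in the tenth richest in GC. The exons of *FLNA* hold 62.5% GC, and the median of the 429 genes within 1 percentage point of that value was 1.14, against 1.98 for *FLNA* itself. For *FLNC* (62.3% GC) the median of such genes was 1.10, against its own 1.56. For *ACTB* (59.1% GC) the neighbours had a median of 0.74, against its own 1.08, and for *ACTG1* (58.5% GC) they had a median of 0.67, against its own 0.04. *ACTG1* was thus below genes of like composition while *ACTB* was above them. For *ACTN4* (58.7% GC) the median of the neighbours was 0.69, for *TLN1* (56.7% GC) 0.53, for *MYH9* (56.3% GC) 0.48, for *ACTN1* (54.2% GC) 0.31 and for *MYH10* (45.6% GC) -0.14. The gene's own value was above this median for *ACTN4*, *TLN1*, *MYH9* and *MYH10*, and *ACTN1* was at 0.31 itself.

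**Figure D2:**
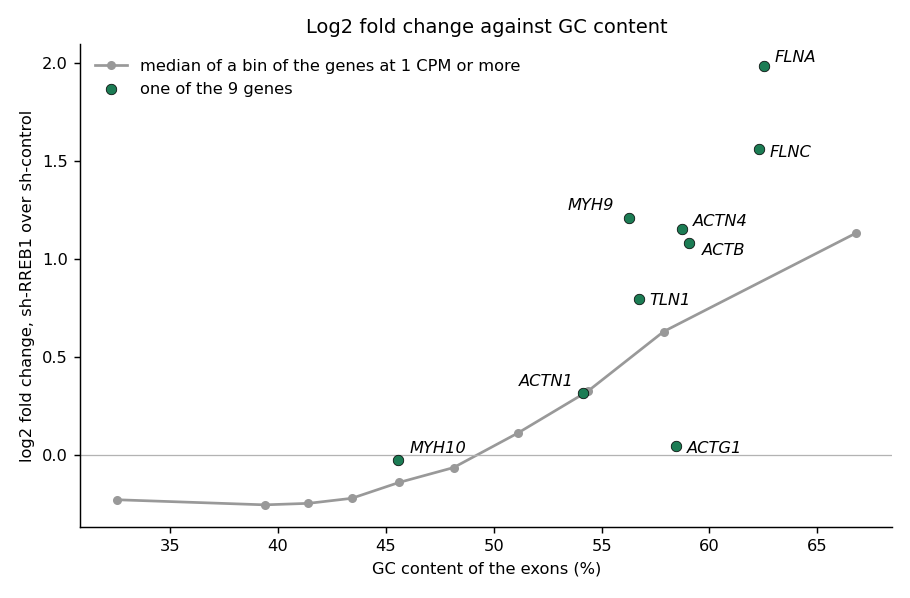
Log2 fold change, sh-RREB1 over sh-control, against the GC content of the exons in percent. Grey points joined by a line are the medians of 10 equal bins of the genes at 1 CPM or more, ordered by GC content, and green points are the 9 genes. *FLNA*, *FLNC*, *MYH9*, *ACTN4*, *ACTB*, *TLN1* and, by less, *MYH10* lie above the line, *ACTN1* lies on it and *ACTG1* lies below it at 0.04.

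When a trend on GC content and exonic length was removed from each library before the edgeR test, no member was called, where 3.02% of all genes were called in both directions. *FLNA* then had a log2 fold change of 0.89 (95% confidence interval 0.61 to 1.17) with an edgeR adjusted *p* of 0.00071. *MYH9* was at 0.63 with an adjusted *p* of 0.000434 and *ACTN4* at 0.41 with an adjusted *p* of 0.0054, both by edgeR. These 3 genes passed the *p* threshold upwards but not the fold threshold. With no minimum fold change, 5.36% of all genes passed the *p* threshold upwards and 6.05% downwards. *ACTG1* passed the *p* threshold downwards, with a log2 fold change of -0.73 (95% confidence interval -1.09 to -0.37) and an edgeR adjusted *p* of 0.00885. The other members did not pass. *ACTB* was at 0.30 with an edgeR adjusted *p* of 0.154, *FLNC* at 0.49 with 0.0652 and *TLN1* at 0.19 with 0.12. *RREB1* was at -0.36 in this fit with an edgeR adjusted *p* of 0.0534. The trend differs between the groups as well as between libraries of a group, and its part in the members' differences was not tested.

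**Figure D3:**
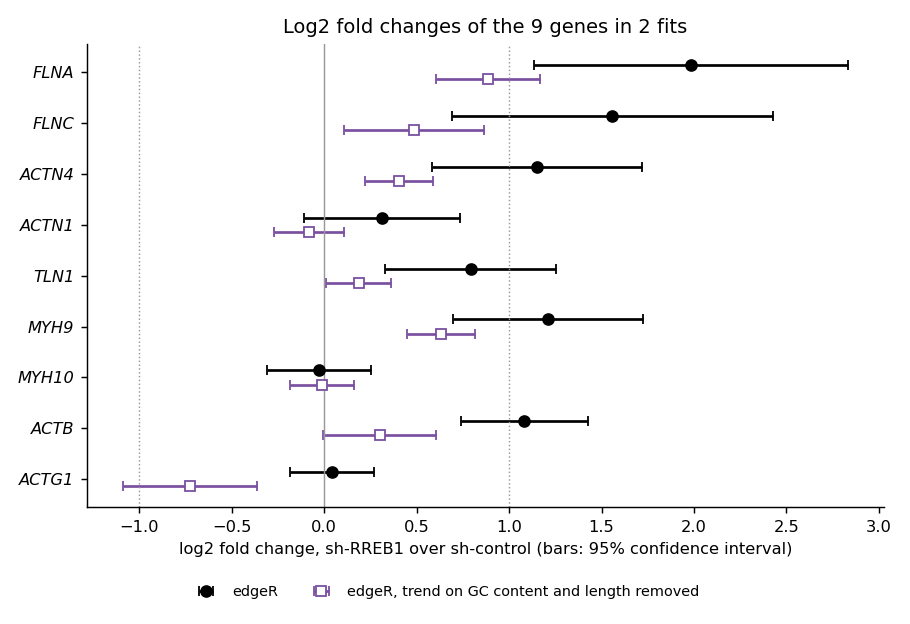
Log2 fold changes of the 9 genes, sh-RREB1 over sh-control, with 95% confidence intervals (*n* = 3 per group), from edgeR (filled circles) and from edgeR after a trend on GC content and exonic length was removed (open squares). Dotted lines mark the fold threshold. *FLNA* moves from 1.98 to 0.89 and stays above 0, and *ACTG1* moves from 0.04 to -0.73.

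Ratios of reads between paralogs within a library need no scaling between libraries. In 3 of the 4 pairs of paralogs the groups did not overlap. Among single genes the groups were apart in 41.1% of those tested. No such share is given for ratios of other genes, so this count is a description. With 3 libraries against 3, the exact permutation test cannot give a two-sided *p* below 0.1. The ratio of *ACTG1* to *ACTB* reads was 2.86, 2.18 and 2.22 in sh-control and 1.02, 1.26 and 1.22 in sh-RREB1. This ratio was 0.483 times that of the controls, a log2 difference of -1.05 (exact permutation *p* = 0.1, the smallest possible, and 0.133 adjusted over the 4 ratios). It kept to between -1.12 and -0.93 when any library was left out and was -0.98 with the GC and length trend removed. The ratio of *MYH10* to *MYH9* reads was 5.80, 3.30 and 2.83 in sh-control and 1.68, 1.46 and 1.59 in sh-RREB1. The log2 difference was -1.27 (exact permutation *p* = 0.1), it was -0.96 without sh-control replicate 1, and it was -0.65 with the trend removed. The ratio of *ACTN4* to *ACTN1* reads was 1.26, 1.80 and 1.79 in sh-control and 2.86, 2.91 and 3.08 in sh-RREB1. The log2 difference was 0.89 (exact permutation *p* = 0.1) and was 0.49 with the trend removed. The ratio of *FLNC* to *FLNA* reads was 0.0960, 0.0810 and 0.0986 in sh-control and 0.0814, 0.0638 and 0.0613 in sh-RREB1. Here the groups overlapped, with a log2 difference of -0.42 (exact permutation *p* = 0.2).

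Since *ACTB* served as the reference of that QPCR in human cells, the reads of *RREB1* were also set against the actins. The ratio of *RREB1* to *ACTB* reads was 0.0977, 0.0659 and 0.0673 in sh-control and 0.0288, 0.0333 and 0.0345 in sh-RREB1. In sh-RREB1 it decreased by 57.6%, a log2 difference of -1.24 (exact permutation *p* = 0.1, the smallest possible), or -0.65 with the GC and length trend removed, whereas *RREB1* scaled to all genes had a log2 fold change of -0.14. The ratio of *RREB1* to *ACTG1* reads, added after the data were seen, was 0.0341, 0.0302 and 0.0303 in sh-control and 0.0284, 0.0265 and 0.0282 in sh-RREB1. It decreased by 12.0%, a log2 difference of -0.19 (exact permutation *p* = 0.1), and it reversed to 0.33 when the trend on GC content and length was removed. In the same 6 libraries, *RREB1* relative to an actin thus decreased by 12.0% with *ACTG1* as the reference and decreased by 57.6% with *ACTB*.

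**Figure D4:**
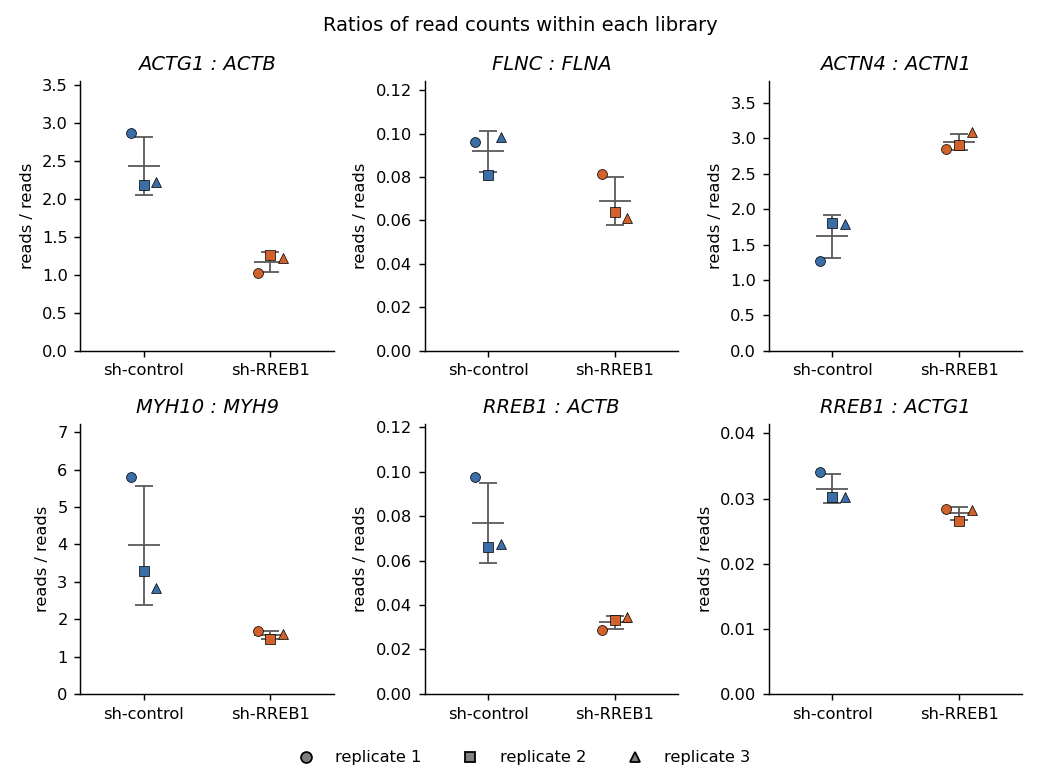
Ratios of read counts between genes within each library (linear axes from 0). Symbols are libraries as in the plot of levels, long bars are group means and error bars the SD (*n* = 3). The groups are apart in every panel except that of *FLNC* to *FLNA*, and *ACTG1* to *ACTB* lies between 2.18 and 2.86 in sh-control and between 1.02 and 1.26 in sh-RREB1.

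Levels between genes were compared as CPM per kb of the principal transcript. In sh-control the order was *ACTG1* (435 ± 21.7 CPM per kb, SD, *n* = 3), *ACTB* (194 ± 35.4) and *MYH10* (51.1 ± 4.01), each without overlap with the next. *TLN1* (15.3 ± 3.57), *MYH9* (14.4 ± 4.13), *ACTN4* (10.7 ± 3.64), *FLNA* (9.38 ± 4.92) and *ACTN1* (8.74 ± 1.58) followed, and neighbours in this stretch of the order overlapped. *FLNC* came last at 0.800 ± 0.449 CPM per kb. In sh-RREB1 *ACTG1* was at 449 ± 30.6 CPM per kb and *ACTB* at 411 ± 42.2, and their libraries overlapped. *FLNA* moved from place 7 to place 4 of 9, at 37.1 ± 7.33 CPM per kb. Its sh-RREB1 libraries (31.8 to 45.5) overlapped those of *MYH10* (45.2 to 58.1), *MYH9* (27.9 to 41.3) and *TLN1* (21.6 to 32.9). This place is therefore not settled. *MYH10* stayed above *MYH9* in sh-RREB1, at 50.1 CPM per kb against 33.2.

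Other genes of the actin and adhesion machinery were taken from 6 lists. Of their 76 genes 72 were tested, and 2 were called higher and 0 lower by edgeR, against 2.71% and 0.699% of all genes. At an unadjusted *p* below 0.05 there were 29 of the 72, against 34.4% of all genes, and DESeq2 called 6 higher and 0 lower, against 5.94% and 1.13% of all genes. The median of their log2 fold changes was 0.04, with 39 above 0 and 33 below, and the groups did not overlap in 31 of the 72, against 41.1% of all genes in both directions. These genes are also poorer in GC than the members, with a median of 48.3% against 58.5%.

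The largest difference among them was that of *RHOB*, a small GTPase of endosomes and an immediate early gene, in the list of myosin light chains and their regulators. It was measured at 17.9, 20.2 and 21.7 CPM in sh-control and at 162, 118 and 152 CPM in sh-RREB1. *RHOB* rose by 2.85 ± 0.15 on the log2 scale (SE, *n* = 3 per group), or 7.21-fold, with an edgeR adjusted *p* of 0.000139. It was called in all 6 fits that left out a library and with the GC and length trend removed, at 2.27. The second called gene was *ZYX*, which encodes zyxin, a focal adhesion protein that recruits actin assembly factors to strained filaments. It was measured at 1.39, 2.17 and 2.65 CPM in sh-control and at 12.0, 8.75 and 6.03 CPM in sh-RREB1. *ZYX* rose by 2.10 ± 0.31 on the log2 scale with an edgeR adjusted *p* of 0.00479, was called in 2 of the 6 fits that left out a library, and was at 0.95 with the trend removed (edgeR adjusted *p* of 0.018).

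Of the 13 myosin light chain and regulator genes tested, 1 was called higher and 0 lower, against 2.71% and 0.699% of all genes. Their median log2 fold change was -0.05. The genes named next were picked after their values were seen. The regulatory light chain gene *MYL12A* was measured at 115, 125 and 117 CPM in sh-control and at 63.3, 73.0 and 71.0 CPM in sh-RREB1. Its log2 fold change was -0.78 with an edgeR adjusted *p* of 0.00395, which passed the *p* threshold and not the fold threshold, and it was -0.61 with the trend removed. The neighbouring light chain gene *MYL12B* was at -0.55 with an edgeR adjusted *p* of 0.0109, and the kinase gene *ROCK1*, whose product phosphorylates these light chains, was at -0.56 with an edgeR adjusted *p* of 0.0152, or -0.34 with the trend removed. In both regulatory light chain genes every sh-RREB1 library was below every sh-control library, the opposite of the heavy chain gene *MYH9*. Such separation was common, at 41.1% of all genes tested in both directions and 21.1% upwards. The third non-muscle heavy chain gene, *MYH14*, was measured at 3.35, 5.74 and 7.57 CPM in sh-control and at 12.5, 17.3 and 12.8 CPM in sh-RREB1, a log2 fold change of 1.34 with an edgeR adjusted *p* of 0.0149, or 0.60 with the trend removed.

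The calls of the lists below stand against 3.41% of all genes called in both directions. Actin isoforms and monomer binders held 12 tested genes with 0 called and a median log2 fold change of 0.01. The most abundant was *CFL1*, the severing factor cofilin, measured at 243, 368 and 383 CPM in sh-control and at 309, 437 and 361 CPM in sh-RREB1, with a log2 fold change of 0.16. The Arp2/3 complex, formins and capping proteins, which nucleate and cap filaments, held 15 genes with 0 called and a median of -0.11. *CAPZA1*, a subunit of the capping protein, was measured at 464, 396 and 359 CPM in sh-control and at 408, 306 and 372 CPM in sh-RREB1, with a log2 fold change of -0.17. Crosslinkers and tropomyosins held 13 tested genes with 0 called and a median of 0.28. The bundling protein gene *PLS3* was the most abundant gene of all 6 lists, measured at 2380, 2437 and 2264 CPM in sh-control and at 2219, 2171 and 2239 CPM in sh-RREB1, with a log2 fold change of -0.10 and an edgeR adjusted *p* of 0.515. *FSCN1*, which encodes the bundling protein fascin and was picked after its values were seen, was measured at 1.04, 3.24 and 4.55 CPM in sh-control and at 14.1, 15.3 and 10.2 CPM in sh-RREB1. Its log2 fold change was 2.15 with an edgeR adjusted *p* of 0.0112, so it was not called, and it was 0.76 with the trend removed. Among the 16 focal adhesion adaptors 1 was called, *ZYX*, with a median of 0.16.

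**Figure D5:**
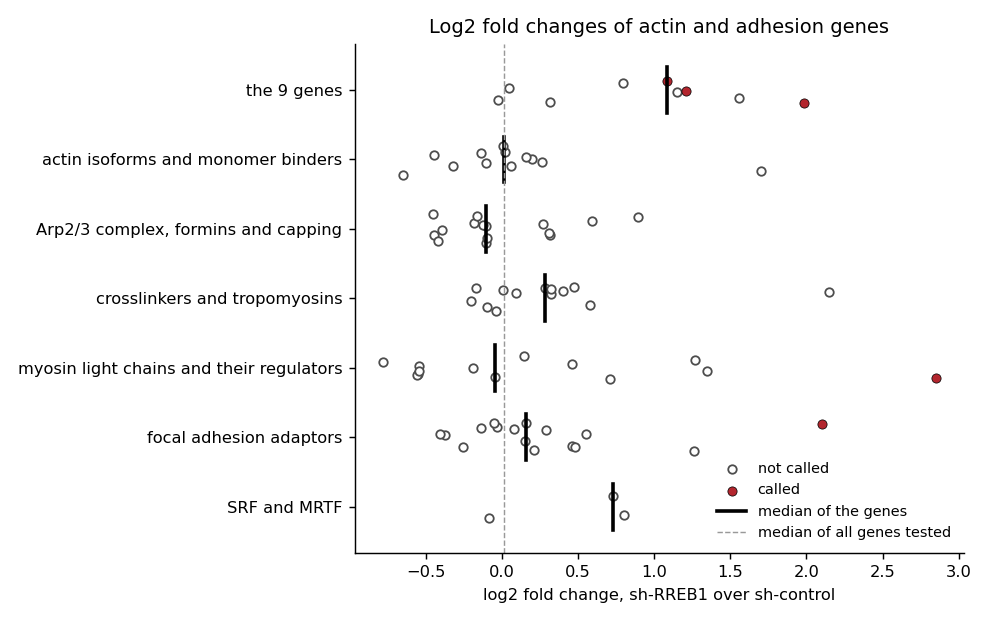
Log2 fold change, sh-RREB1 over sh-control, of each tested gene of the 9 and of 6 lists of actin and adhesion genes. Filled red points are genes called by edgeR, open points were not called, black bars are the medians of a list and the dashed line is the median of all genes tested, 0.01. The 9 genes have a median of 1.08, and the 5 larger lists have medians between -0.11 and 0.28.

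The regulators *SRF*, *MRTFA* and *MRTFB* were all tested and 0 of 3 were called, against 3.41% of all genes, with a median log2 fold change of 0.73. *SRF* and *MRTFA* are described after their values were seen. *SRF* was measured at 15.5, 22.5 and 23.9 CPM in sh-control and at 32.1, 41.5 and 34.5 CPM in sh-RREB1, without overlap, a log2 fold change of 0.80 with an edgeR adjusted *p* of 0.0223. With the GC and length trend removed *SRF* was at -0.16. *MRTFA* was measured at 9.31, 8.80 and 9.47 CPM in sh-control and at 15.0, 17.1 and 13.6 CPM in sh-RREB1, a log2 fold change of 0.73 with an edgeR adjusted *p* of 0.0156, or 0.17 with the trend removed. *MRTFB*, the more abundant cofactor, was measured at 84.1, 55.9 and 55.5 CPM in sh-control and at 59.8, 63.5 and 60.7 CPM in sh-RREB1, a log2 fold change of -0.09. Of the members whose promoters hold the CArG box letters, *FLNA* was called and *ACTG1* was at 0.04. The promoter of *ACTB* was not searched. Of the 67 list genes with a promoter sequence 7 (10.4%) held the box. Of these 7, 5 were tested and 0 of the 5 were called, where 3.41% of all genes tested were called in both directions. So few genes do not tell 0 apart from that share.

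The members did not all vary together over the 6 libraries. On log2 CPM the highest Pearson correlation between members was 0.993, between *MYH9* and *ACTN4*, and *MYH10* had correlations from -0.28 with *ACTB* to 0.40 with *ACTG1*. The genes outside the lists whose pattern over the 6 libraries was most like the mean of the members, among 9298 compared, were *CYB561*, *PHC2*, *MIGA2*, *POR* and *FHOD1*, each with a Pearson correlation of 0.999. All 5 hold between 59.2% and 61.8% GC in their exons. This range is above the members' median of 58.5%, and among the members only *FLNA* and *FLNC* hold more. The 6 libraries share the difference in GC trend given above. These correlations are descriptions over 6 points that fall into 2 groups.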

How the data were processed

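RNA-seq was performed on 6 libraries, 3 labelled sh-control and 3 labelled sh-RREB1, with a strand-specific total RNA kit. The authors aligned reads with STAR to hg38 with the Gencode annotation and deposited the raw counts that STAR gave per gene, without normalization, as 1 table for each library and a merged table. All 24635 identifiers of the merged table equalled the counts of the library tables on the gene's strand, which were used here. Of 58037 identifiers 56948 had a symbol after 45 pseudoautosomal copies were dropped. Where identifiers shared a symbol only that with the highest total was kept, leaving 55767 genes, and the 23304 genes with at least 10 reads in total were tested. Lines of reads on no gene (8853232 to 13201426 per library) or on more than 1 gene (948964 to 2608366) stayed out of library sizes.

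edgeR 4.0.16 (quasi-likelihood test, TMM scaling, condition as the only term) was run in R 4.3.3 with Benjamini-Hochberg adjustment over all genes tested, and calls needed an adjusted *p* under 0.01 and a log2 change of more than 1 either way, as in the study's methods. DESeq2 1.42.0, which the authors used in an earlier version, was an alternative. CPM are TMM-scaled counts per 1000000 reads, and log2 CPM carry a prior count of 0.5. Coordinates, exonic GC content and length came from a later Gencode release on hg38. The trend on them was fitted per library with natural splines of 5 degrees of freedom and removed as an offset. Promoters came from RefSeq, and permutation tests were run in SciPy 1.17.1. On simulated counts of this comparison (22850 genes, 200 changed) edgeR recovered 100% of the changed genes with 1 false call, and so did edgeR with the correction. The simulated counts had the same low dispersion in every gene and no GC trend, unlike these libraries. They therefore check that the code runs properly, and do not measure recovery or false calls in the real data. The closest libraries, sh-control replicates 2 and 3, had a chi-square of 4.74 for each degree of freedom, above sampling noise, so all 6 were counted as separate.

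The members, the lists and the tests were chosen with earlier results of these data known. The genes named are the 9 members, *RREB1*, up to 3 called genes of each list (or its most abundant gene where none was called) and the 5 genes most like the members. Others are marked in the text as named after their values were seen. Intervals are at 95%. With 3 libraries per group, precision is set by the spread between libraries, and *FLNC* by as few as 76 reads in a library. Replicate numbers did not pair the libraries, and the fit with them as a block is an alternative.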

Additional observations from a re-analysis of the deposited data

How the results depend on the processing

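The direction of the 4 paralog ratios and of the *RREB1* to *ACTB* ratio held under all 10 alternatives run for each. Among these, the replicate block gives the same difference as the main setting by construction, so its direction was fixed in advance. In all of these ratios but that of *FLNC* to *FLNA* the groups did not overlap. Leaving out 1 library could then not reverse the direction, so those alternatives were fixed in advance as well. *FLNA*, *FLNC*, *ACTB*, *ACTN4*, *MYH9* and *TLN1* had log2 fold changes above 0 under all 22 alternatives. The groups did not overlap in these genes, so leaving out 1 library could hardly reverse their sign unless the trend was removed too. The number of members called, 3 in the report, depended on the settings. It was 5 with DESeq2 and 5 with a minimum of 1 read in total, 1 with both strands together, 6 at an adjusted *p* below 0.05 with no minimum fold change, and 0 with the GC and length trend removed. Without 1 library it ranged from 0 to 2, and from 0 to 1 with the trend removed as well. The list genes called higher, 2 in the report, were 6 with DESeq2, where 5.94% of all genes were called higher. They were 1 with the trend removed, where 424 of all genes were called higher. They were 6 with a minimum of 1 read and 4 with upper-quartile scaling. At an adjusted *p* below 0.05 with no minimum fold change, where 10.8% of all genes passed upwards, they were 12. Without 1 library they ranged from 1 to 4. List genes called lower, 0 in the report, were 1 at an adjusted *p* below 0.01 and 8 at one below 0.05 with no minimum fold change, stayed at 0 without any 1 library, and reached 1 with the trend removed and a library left out. Where no share of all genes is given in this section, a count was not set against that of all genes. A change in such a count is therefore not a result about these genes.

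Replicate numbers were also fitted as a block. Deviations of same-numbered libraries correlated at 0.50, 0.43 and -0.28 over 14332 genes, so the numbers do not pair the libraries, and not every library correlated best with its own number. With the replicate block 5 members and 6 list genes were called higher. With the block and the trend removed together, 0 members and 1 list gene were called. The share of all genes called is not given for the fits with the block, so these counts are not results about the genes.

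Genes near 0 changed sign. *ACTG1*, 0.04 in the report, was at -0.050 with upper-quartile scaling, -0.73 with the trend removed and -0.69 with the trend removed and the block. It ranged from -0.023 to 0.078 without 1 library, and from -0.85 to -0.46 with the trend removed as well. *ACTN1*, 0.31 in the report, was at -0.084 with the trend removed and at -0.083 with the block added. It ranged from 0.15 to 0.41 without 1 library, and from -0.11 to -0.061 with the trend removed as well. *MYH10*, -0.03 in the report, was at 0.027 with filterByExpr. It ranged from -0.15 to 0.042 without 1 library, and from -0.039 to 0.020 with the trend removed as well. The *RREB1* to *ACTG1* ratio was at 0.33 with the trend removed. The cause of these changes was not tested. Fits that leave out a library with the trend removed, and the *RREB1* to *ACTG1* ratio, were chosen after seeing the data.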
